A study of Mus musculus with 7 samples.

Results

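Counts of 9 genes, out of 23413 symbols in the count files, were followed in the cortex of APP/PS1 mice: Drd1, Drd2, Gpr6, Ppp1r1b, Rgs9, Penk, Rxrg, Isl1 and Syndig1l. They were chosen by symbol as genes of the striatum and of neurons that respond to dopamine. All 9 members were found, 8 under their current symbol and Drd1 under its older symbol Drd1a. The question was whether their transcripts differed between mice on a ketogenic diet and mice on a carbohydrate-rich control diet.

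Every library came from cortex of a 13 month old, singly housed APP/PS1 mouse (B6.Cg-Tg(APPswe,PSEN1dE9)85Dbo/Mmjax), a line that carries human mutant amyloid precursor protein and mutant presenilin 1 as transgenes in neurons, so the control-diet mice carry them too. The control diet (CD, SD in the labels; 4 libraries) drew 74% of its energy from carbohydrate, 10% from protein and 16% from fat. The ketogenic diet (KD; 3 libraries) drew under 0.5% from carbohydrate, 10% from protein and 90% from fat. Both were fed from 6 months of age for 7 months. The study used both sexes, and no wild-type library and no label of sex went into this comparison. Each library is taken to be a separate mouse because each title carries its own animal code.

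Dopamine reaches the forebrain from midbrain neurons and acts through D1-type receptors, which raise cyclic AMP, and D2-type receptors, which lower it. In the striatum these receptors lie mostly on separate spiny projection neurons: the direct pathway carries Drd1, and the indirect pathway carries Drd2, Gpr6 and the enkephalin precursor Penk. The phosphoprotein DARPP-32, encoded by Ppp1r1b, and the G protein regulator Rgs9 work downstream in both, and several of these genes are also used by cortical neurons.

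Promoter windows from RefSeq (GRCm38.p6, running from 250 bases before to 50 bases after an annotated start) were found for 6 of the 9 members, 8 windows in all. None was given for Ppp1r1b, Penk and Syndig1l. The windows were searched on both strands for the cyclic AMP response element TGACGTCA, the shorter TGACG (contained in the full element) and the nuclear receptor core site AGGTCA, since D1 receptors signal through cyclic AMP and Rxrg is a nuclear receptor. The windows below are those of Drd1, the member with the smallest p-value, of Gpr6, the member with the lowest fold change among those tested, and of Rxrg and Isl1, the members with the widest gap between a single library and the rest. Capitals mark motif matches, and each is written 5′ to 3′ on the gene's strand.
Drd1 (chr13:54055609-54055908, minus strand): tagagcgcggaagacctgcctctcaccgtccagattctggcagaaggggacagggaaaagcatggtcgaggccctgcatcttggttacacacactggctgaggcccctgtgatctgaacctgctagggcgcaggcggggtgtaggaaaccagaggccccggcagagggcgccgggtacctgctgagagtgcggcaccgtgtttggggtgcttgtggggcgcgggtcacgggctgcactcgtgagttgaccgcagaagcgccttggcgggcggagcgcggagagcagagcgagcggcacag
Gpr6 (chr10:41072241-41072540, minus strand): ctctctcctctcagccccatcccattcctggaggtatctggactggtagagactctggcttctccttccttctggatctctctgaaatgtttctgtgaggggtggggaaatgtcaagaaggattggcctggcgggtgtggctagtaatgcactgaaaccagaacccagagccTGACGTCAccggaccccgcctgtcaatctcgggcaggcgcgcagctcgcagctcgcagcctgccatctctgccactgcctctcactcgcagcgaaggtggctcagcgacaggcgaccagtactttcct
Rxrg, the more downstream of 2 starts (chr1:167618015-167618314, plus strand): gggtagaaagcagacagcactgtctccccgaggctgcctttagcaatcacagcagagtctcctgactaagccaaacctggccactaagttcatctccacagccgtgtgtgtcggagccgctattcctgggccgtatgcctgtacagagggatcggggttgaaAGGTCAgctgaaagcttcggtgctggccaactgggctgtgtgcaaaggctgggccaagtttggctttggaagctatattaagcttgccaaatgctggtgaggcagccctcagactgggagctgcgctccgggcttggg
Isl1 (chr13:116309639-116309938, minus strand): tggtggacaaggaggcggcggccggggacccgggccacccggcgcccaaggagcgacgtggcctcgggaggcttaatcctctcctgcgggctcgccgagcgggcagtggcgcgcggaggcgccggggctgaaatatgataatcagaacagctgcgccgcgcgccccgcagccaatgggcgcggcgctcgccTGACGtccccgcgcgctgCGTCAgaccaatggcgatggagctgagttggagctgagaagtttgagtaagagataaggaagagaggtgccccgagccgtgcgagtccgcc

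The Gpr6 window held the full TGACGTCA with its first base at -78 from the start, a match found in 1.79% of all 32851 windows of the same length. Isl1 held the shorter TGACG at -59 and its reverse complement at -41, and 20.8% of all windows held at least 1 copy. The downstream Rxrg window held AGGTCA at -88, as did 16.3% of all windows, and the printed Drd1 window held none of these letters. The windows of Drd2 and Rgs9, the second of Drd1 and the upstream one of Rxrg held none either. The GC content was 65.7% for the printed Drd1 window, 58.7% for Gpr6 and 69.0% for Isl1, against a median of 52.7% over all windows. A match is a string of letters and was not tied to binding here.

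The libraries held 22272883 to 36614954 counts, and 15881 genes passed the filter on low counts. On the first principal component, which took 35% of the variance, CD replicate 4 (39.5) and KD replicate 3 (46.7) lay apart from the other 5 libraries (-25.2 to 2.39). These 2 libraries also differed from the rest in markers of other regions. A list of genes of the ventral forebrain outside the striatum summed to 137 counts per 1000000 counts of the library (CPM) in KD replicate 3 against 7.11 to 27.3 in the other 6, and 5 olfactory bulb genes summed to 66.4 CPM in CD replicate 4 and 18.9 in KD replicate 3 against 4.45 to 9.4. In KD replicate 3 that olfactory bulb sum was mostly Cdhr1 (12.9 CPM). Sp8 (3.37 CPM) was second only to CD replicate 4, and Eomes (0.404), Doc2g (2.11) and Tbx21 (0.135) lay among the libraries other than CD replicate 4. The members' fold changes and the splits of higher and lower estimates quoted for gene lists are therefore also given with 1 or both of these libraries left out. The part of these markers in any member's value was not tested. Cortical markers were high in all libraries, with Slc17a7, the vesicular glutamate transporter of cortical excitatory neurons, at 445 to 630 CPM. Of the genes that define striatal neurons, Six3 stayed at or below 0.853 CPM and Adora2a, the adenosine receptor of the indirect pathway, at 1.23 to 6.51 CPM, and Drd3, the dopamine receptor of the ventral striatum, at or below 0.269 CPM. Each was highest in KD replicate 3, against at most 0.385, 3.51 and 0.061 CPM elsewhere, with Six3 at 19 and Drd3 at 6 counts there. Some other genes that striatal neurons use were higher, such as Tac1 at 9.67 to 35.5 CPM and Pde10a at 85.8 to 118 CPM. Scn4b was lowest in KD replicate 3, at 44.9 CPM.

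Between genes, levels were compared as CPM per kilobase of exon in the CD libraries. Penk stood first at 19.1 ± 9.37 (SD, n = 4), followed by Ppp1r1b at 10.3 ± 3.17 and Drd1 at 7.03 ± 1.03. Rgs9 was at 2.68 ± 0.474, Rxrg at 1.20 ± 0.619, Syndig1l at 0.787 ± 0.283 and Gpr6 at 0.717 ± 0.277, while Drd2 was at 0.418 ± 0.0786 and Isl1 at 0.0402 ± 0.0143. Of the neighbours in this order, the CD ranges were separate between Drd1 and Rgs9, between Gpr6 and Drd2 and between Drd2 and Isl1, and overlapped for the other 5 pairs. The order within the set was thus Penk, DARPP-32 and the D1 receptor at the top, and the D2 receptor and Isl1 at the bottom. Neighbours whose ranges overlap are not ranked by these data.

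**Figure D1:**
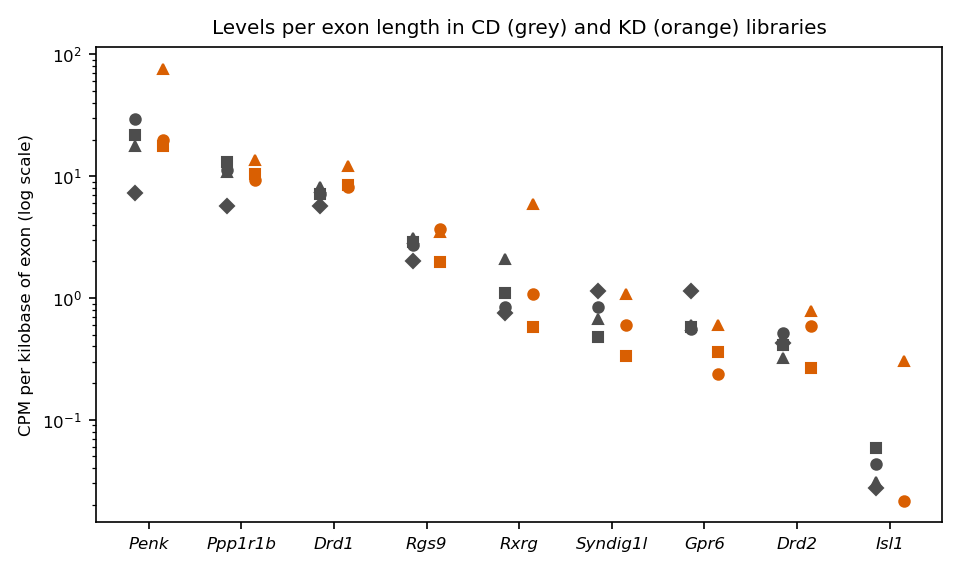
Level of each member per kilobase of exon, on a log axis in CPM per kilobase, in each CD library (grey) and KD library (orange), with the marker shape giving the replicate (circle 1, square 2, triangle 3, diamond 4). Penk lies at the top and Isl1 at the bottom, and Isl1 in KD replicate 2, with 0 counts, is not drawn.

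Drd1, the D1 dopamine receptor (chr13:54051183-54055705, minus strand, GRCm38 with GENCODE M21, as for all coordinates of genes here), was the only member whose raw p in the edgeR quasi-likelihood fit was under 0.05, as 3.19% of all genes tested were. It measured 26.0, 26.0, 29.5 and 20.5 CPM in CD replicates 1 to 4 and 29.4, 30.7 and 44.0 CPM in KD replicates 1 to 3. KD replicates 2 and 3 were above all CD libraries and KD replicate 1 was just below CD replicate 3, so the groups overlapped. The log2 fold change, KD minus CD, was 0.45 ± 0.17 (SE; edgeR quasi-likelihood test, adjusted p = 0.979 over all genes). An exact two-sided permutation test over the 7 libraries, with the smaller tail doubled, gave p = 0.114. In this form its smallest p for 4 against 3 libraries is 0.0571, so it cannot pass 0.05 for any gene here. Leaving out KD replicate 3 lowered the fold change to 0.26 ± 0.16 and leaving out CD replicate 4 lowered it to 0.34 ± 0.15, and the raw p was above 0.05 without either of them and also without CD replicate 1 (0.46 ± 0.20) or CD replicate 2 (0.47 ± 0.20). Without KD replicate 3 and CD replicate 4 together it was 0.15 ± 0.11. The estimate for Drd1 was above 0 in each of these fits.

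Drd2, the D2 receptor (chr9:49340627-49408177, plus strand), was low, with 23 to 46 counts a library. It measured 1.31, 1.04, 0.824 and 1.09 CPM in CD and 1.5, 0.676 and 1.98 CPM in KD. The lowest and the highest library were both KD. Its log2 fold change was 0.36 ± 0.39 (adjusted p = 0.979; exact permutation p = 0.571), and 0.03 ± 0.43 without KD replicate 3. The CD libraries varied by 18.8% (coefficient of variation), while counting error alone would give 17.0%, so the spread in CD was close to that of counting. The KD libraries varied by 47.5%, against 17.8% from counting.

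Gpr6, an orphan receptor of the indirect pathway that raises cyclic AMP (chr10:41069977-41072285, minus strand), had the lowest fold change of the tested members. It measured 0.997, 1.04, 1.07 and 2.02 CPM in CD and 0.428, 0.647 and 1.08 CPM in KD, from 10 to 74 counts a library. CD replicate 4 lay far above the other CD libraries, and KD replicate 3 lay within the CD range, so the groups overlapped. Its log2 fold change was -0.83 ± 0.42 (adjusted p = 0.979; exact permutation p = 0.229). Without KD replicate 3 it was -1.21 ± 0.46, and Gpr6 was then the 1 member with a raw p under 0.05. Without CD replicate 4 it was -0.54 ± 0.40, and without both libraries -0.91 ± 0.43, with a raw p above 0.05 in each.

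**Figure D2:**
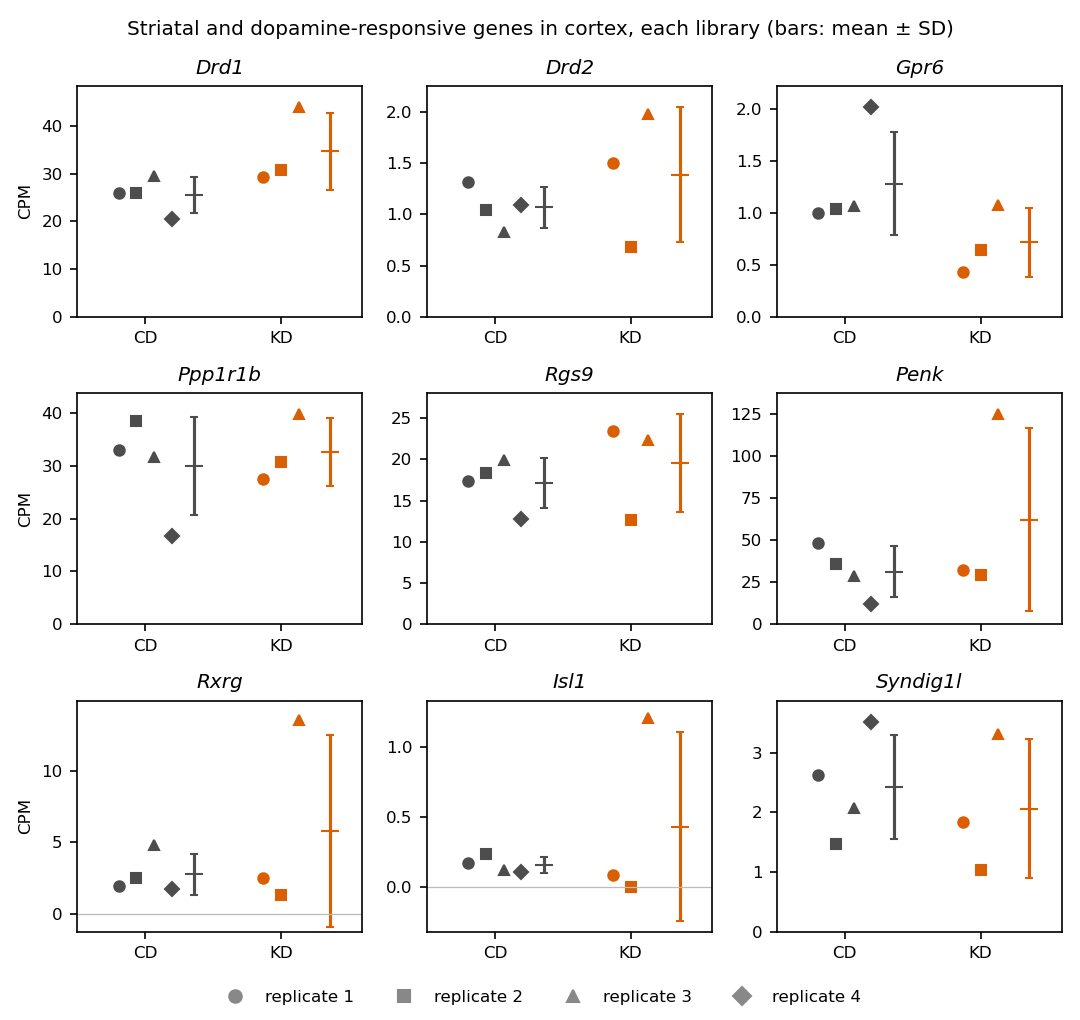
CPM of each member in each library on a linear axis, CD in grey and KD in orange, with marker shapes for replicates and a bar for the mean ± SD of the group. KD replicate 3 (orange triangle) is the highest library for Drd1, Drd2, Ppp1r1b, Penk, Rxrg and Isl1, and CD replicate 4 (diamond) is the highest for Gpr6 and Syndig1l.

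Ppp1r1b, which encodes DARPP-32, an inhibitor of protein phosphatase 1 once protein kinase A has phosphorylated it (chr11:98348404-98357796, plus strand), measured 33.0, 38.5, 31.8 and 16.8 CPM in CD and 27.5, 30.7 and 39.8 CPM in KD. Apart from CD replicate 4, the other 6 libraries lay between 27.5 and 39.8 CPM. With all libraries the log2 fold change was 0.12 ± 0.27 (adjusted p = 0.985; exact permutation p = 0.857), and its sign turned without CD replicate 4 (-0.08 ± 0.15), without KD replicate 3 (-0.03 ± 0.31) and without both (-0.23 ± 0.13). The gene overlaps 1700003D09Rik on the other strand, which the files also count, and the strand setting of the counting is not given in the sources used here, so reads of the overlap may have been assigned to either.

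Rgs9, which speeds the shut-off of G proteins behind dopamine and opioid receptors (chr11:109225355-109298129, minus strand), measured 17.4, 18.3, 19.9 and 12.8 CPM in CD and 23.5, 12.7 and 22.4 CPM in KD. KD replicates 1 and 3 were above every CD library, and KD replicate 2 was level with the lowest, CD replicate 4. A log2 fold change of 0.19 ± 0.24 was fitted (adjusted p = 0.981; exact permutation p = 0.629). It ran from 0.03 ± 0.26 without KD replicate 1 to 0.42 ± 0.19 without KD replicate 2.

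Penk, the precursor of the enkephalins (chr4:4133531-4138819, minus strand), differed most between libraries among the well-counted members. It measured 48.6, 35.7, 28.7 and 11.9 CPM in CD and 32.3, 29.2 and 125 CPM in KD, the highest value being 10.5 times the lowest. KD replicate 3 held 2.57 times the next highest library, and KD replicates 1 and 2 lay inside the CD range. The log2 fold change was 0.98 ± 0.58 with all libraries (adjusted p = 0.979; exact permutation p = 0.457) and -0.01 ± 0.47 without KD replicate 3. Counting error would give a coefficient of variation of 2.99% in KD, against 87.5% observed. In GENCODE the gene overlaps A830012C17Rik on the plus strand.

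Rxrg, the gamma retinoid X receptor, a partner of retinoic acid and other nuclear receptors (chr1:167598384-167639623, plus strand), measured 1.94, 2.51, 4.82 and 1.72 CPM in CD and 2.48, 1.32 and 13.6 CPM in KD. KD replicate 3 was 2.82 times the next highest library, CD replicate 3, while KD replicate 2 was the lowest of all. With all libraries the log2 fold change was 1.06 ± 0.73 (adjusted p = 0.979; exact permutation p = 0.743), and it was -0.52 ± 0.50 without KD replicate 3. Without KD replicate 2 it was 1.53 ± 0.64, the 1 fit in which its raw p was under 0.05.

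Isl1, a LIM homeodomain factor of developing direct-pathway and cholinergic neurons (chr13:116298281-116309689, minus strand), was counted 6, 7, 4 and 4 times in CD and 2, 0 and 27 times in KD. In CPM these are 0.171, 0.234, 0.122 and 0.109 in CD and 0.0855, 0 and 1.21 in KD. The 0 of KD replicate 2 allows a level of up to 0.0882 CPM (3 counts, counting error only; the upper end of its exact two-sided 95% Poisson interval is 0.108 CPM), and the 27 counts of KD replicate 3 have an exact 95% Poisson interval of 0.799 to 1.76 CPM. KD replicate 3 thus lay above the interval of every other library, the highest upper bound of which was 0.482 CPM. Isl1 did not pass the filter on low counts. Fitted with every gene of at least 1 count, its log2 fold change was 1.36 ± 1.15 (adjusted p = 0.923; exact permutation p = 0.857), -1.97 ± 1.18 without KD replicate 3 and -0.53 ± 1.22 with limma-voom in all 7 libraries.

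Syndig1l, which encodes a membrane protein related to the synapse protein SynDIG1 and is enriched in striatum (chr12:84677277-84698831, minus strand), measured 2.62, 1.47, 2.07 and 3.52 CPM in CD and 1.84, 1.03 and 3.32 CPM in KD. The ranges of the groups covered nearly the same interval. A log2 fold change of -0.24 ± 0.43 was fitted (adjusted p = 0.983; exact permutation p = 0.571), with -0.74 ± 0.42 without KD replicate 3 and 0.09 ± 0.40 without KD replicate 2. The antisense gene Gm48573 overlaps it in GENCODE.

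No member passed the study's threshold of a raw p of at most 0.01 (0 of the 8 tested). In the fit made here, 51 of the 15881 genes tested did (0.321%). The study itself reported more genes at this threshold, and the cause of that difference was not tested. At a raw p under 0.05 the count was 1 of 8, against 3.19% of all genes. In none of the 9 members were the CPM ranges of CD and KD apart, against 4.2% of all genes tested. The smallest adjusted p over all genes was 0.979, and no gene passed at 0.05. Of the 8 tested members 6 had a higher estimate in KD (Drd1, Drd2, Ppp1r1b, Rgs9, Penk and Rxrg) and 2 a lower one (Gpr6 and Syndig1l), with a median log2 fold change of 0.28, while 49.0% of all genes were higher and their median was 0.00 (-0.00329). Without KD replicate 3 the members' median was -0.02, with 3 higher and 5 lower, and without CD replicate 4 as well it was -0.26, with 2 higher (Drd1 and Drd2) and 6 lower. In bulk cortex, fewer cells of a type and less RNA per cell cannot be told apart.

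**Figure D3:**
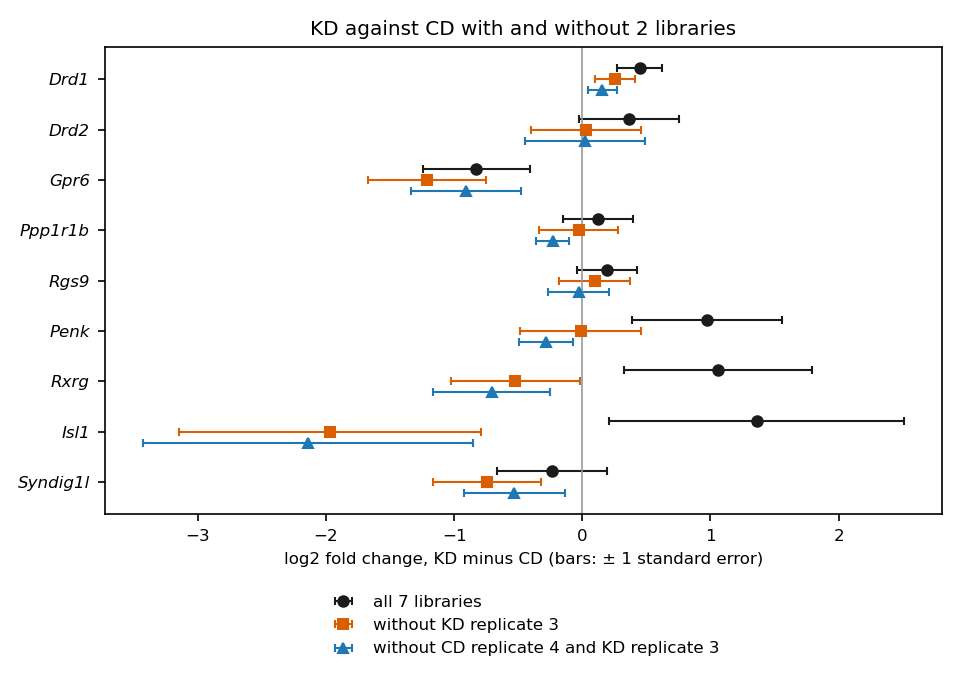
Log2 fold change, KD minus CD, of each member with bars of 1 standard error, from all 7 libraries (black circles), without KD replicate 3 (orange squares) and without both CD replicate 4 and KD replicate 3 (blue triangles). Ppp1r1b, Penk, Rxrg and Isl1 move from the right of 0 to below it when KD replicate 3 is left out, and Rgs9 only when both are. Drd1 and Drd2 stay above 0, and Gpr6 and Syndig1l below it.

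KD replicate 3 was the highest library for 6 of the 9 members, and it was the highest for 22.9% of all genes tested. KD replicate 2 was the lowest for 5 of the 9, against 11.0% of all genes. Summed over the 9 members, CPM was 132, 125, 119 and 70.5 in CD and 119, 107 and 252 in KD, so that a CD library was lowest and a KD library highest, with the other 5 between 107 and 132. In KD replicate 3 the ventral forebrain markers Ecel1 (37.9 CPM against 0.803 to 1.71 elsewhere), Baiap3 (67.9 against 1.82 to 4.92), Gabrq (7.68 against 0.228 to 0.732), Lhx9 (10.5 against 0.0305 to 0.385) and Calcr (5.84 against 0.0273 to 0.334) were high, while Zic1 (6.6 CPM) lay inside the range of the others and Nkx2-1 was at 0.224 CPM against at most 0.061 in the others. In the same library 6 oligodendrocyte genes summed to 1070 CPM, and to 1030 in CD replicate 3, against 2010 to 4010 in the other 5. CD replicate 4 had the lowest sum of 10 cortical excitatory genes, 1390 CPM, with KD replicate 3 next at 1600 and the others at 1780 to 2040. The sum of 8 inhibitory neuron genes was 1060 to 1210 CPM in CD and 933 to 1000 CPM in KD, the ranges lying apart. Gad1, which makes the transmitter GABA, was its largest part, at 508, 533, 471 and 681 CPM in CD and 399, 406 and 454 CPM in KD. It was the only gene of the list with separate ranges (4.2% of all genes had them). Of the 8 estimates 2 were higher in KD and 6 lower (median log2 fold change -0.17). The split was the same without CD replicate 4 or without KD replicate 3 alone, and 0 higher and 8 lower without both (median -0.25). Gad1 was under a raw p of 0.05, as 3.19% of all genes were (-0.37 ± 0.12, adjusted p = 0.979). It was lower in KD also without CD replicate 4 and KD replicate 3 (-0.31 ± 0.09). In that fit Gad1 was at a raw p under 0.01, as 54 of 15908 genes were at most. Pvalb was then under 0.05 (-0.51 ± 0.21), as 404 genes were. Of 7 layer 6 genes, 3 were higher and 4 lower (median -0.07). That split held without CD replicate 4 or without KD replicate 3 alone, and was 6 higher and 1 lower without both (median 0.04). Markers of cholinergic neurons stayed low in all libraries, with Chat, the enzyme that makes acetylcholine, at 0.18 to 0.885 CPM and the list sum at 1.56 to 3.75 CPM. The part of these levels in the members' values was not tested.

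**Figure D4:**
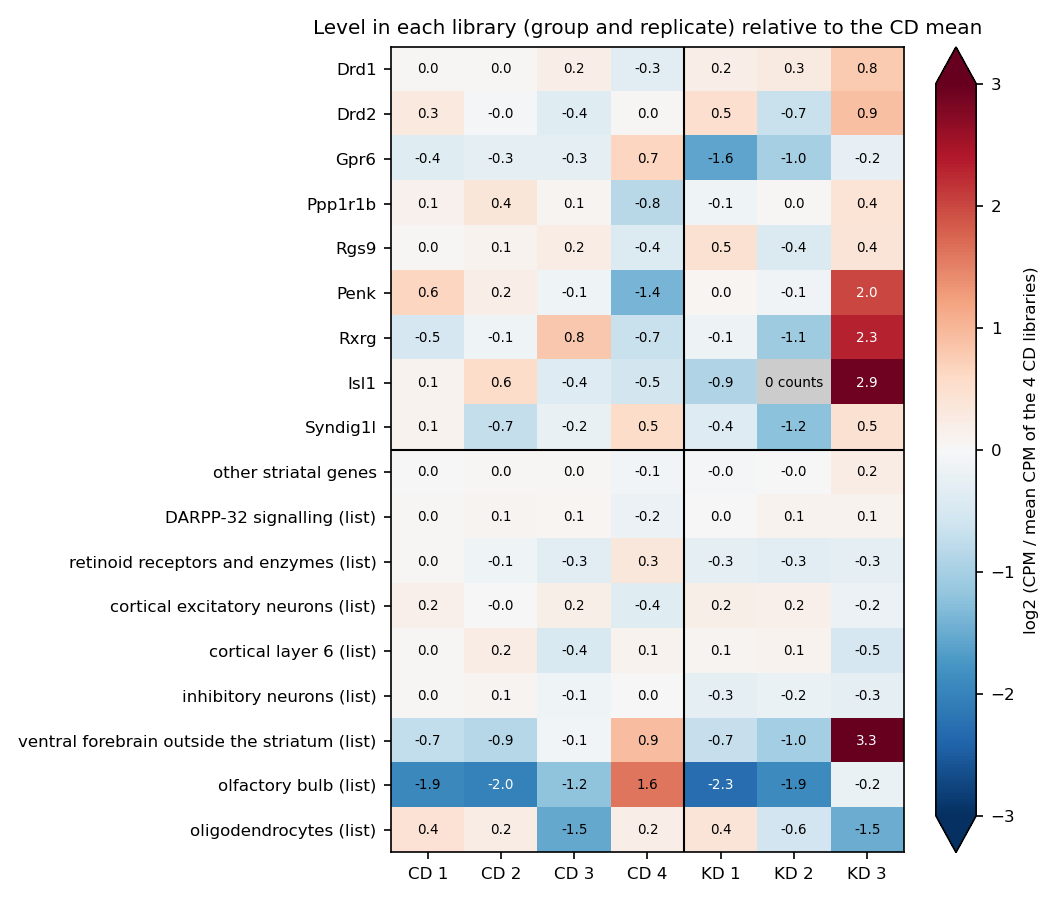
Colour and number give the log2 of each library's CPM over the mean of the 4 CD libraries, for the 9 members (above the line) and for summed gene lists (below it), with columns as group and replicate. KD replicate 3 is at 2.0 for Penk, 2.31 for Rxrg, 2.93 for Isl1 and 3.26 for the ventral forebrain list, and CD replicate 4 is at 1.61 for the olfactory bulb list and -1.39 for Penk, while the grey cell is a count of 0.

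The members did not vary as a single unit. Over the 28 pairs of tested members, the correlation of log2 CPM across the 7 libraries ran from -0.472 to 0.877 with a median of 0.535, and 21 pairs were positive. Without KD replicate 3 the median was 0.163 and 16 pairs were positive. The most alike were Drd1 and Penk (0.877, and 0.698 without KD replicate 3) and Ppp1r1b and Penk (0.824, and 0.904 without it, but 0.336 over the 5 libraries left without CD replicate 4 as well). Gpr6 was negatively correlated with Rgs9 (-0.472), Drd1 (-0.448) and Ppp1r1b (-0.4). The points of a library share its depth and its tissue piece. With CD replicate 4 left out as well as KD replicate 3, the correlation of Drd1 and Penk was -0.865 over 5 libraries.

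Within a library, the ratio of 2 members does not depend on library depth. The ratio of Penk to Drd1 counts was 1.87, 1.37, 0.971 and 0.582 in CD and 1.1, 0.95 and 2.84 in KD. Penk to Drd2, the peptide and the receptor of the indirect pathway, was 37.1, 34.5, 34.8 and 10.9 in CD and 21.6, 43.2 and 63.3 in KD. CD replicate 4 was thus the lowest and KD replicate 3 the highest library in both ratios. The ratio of Ppp1r1b to Drd1 varied least in KD, at 0.937, 0.999 and 0.905, against 1.27, 1.48, 1.08 and 0.822 in CD. The ratio of Rgs9 to Drd1 was steadier in CD, at 0.666, 0.703, 0.674 and 0.628, than in KD, at 0.801, 0.414 and 0.509.

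For each library the z-scores of the 8 tested members were averaged. The mean was 0.101, -0.0124, 0.052 and -0.614 in CD and -0.0546, -0.724 and 1.25 in KD. Rxrg (r = 0.927) and Penk (r = 0.88) followed this mean most closely and Gpr6 (r = 0.00239) least, over 7 libraries. Among the other genes tested, the 10 most like it were Vgll3, 1110002L01Rik, Bcas2, Rps6ka5, Ngfrap1, Polr1d, Krt9, Spg21, Nudt16l1 and Arhgef33, with r from 0.977 (Vgll3) to 0.954 (Arhgef33). Vgll3, a transcriptional cofactor, measured 4.08, 3.38, 3.60 and 1.56 CPM in CD and 3.12, 2.12 and 11.9 CPM in KD, and its correlation was 0.917 without KD replicate 3. All 10 were highest in KD replicate 3, the library that set the highest mean, and were picked from all genes tested for this likeness.

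Other genes that striatal spiny neurons use were looked at by list. Of 26 tested, 1 passed a raw p of 0.01 (Rarb), against 0.321% of all genes, and 18 had a higher estimate in KD and 8 a lower one, with a median log2 fold change of 0.21 against 0.00 for all genes, of which 49.0% were higher. Without KD replicate 3 the split was 11 higher and 15 lower (median -0.04). Leaving out CD replicate 4 too gave 6 higher and 20 lower (median -0.06). Rarb, a retinoic acid receptor, measured 10.7, 11.8, 12.8 and 11.6 CPM in CD and 16.6, 13.7 and 18.0 CPM in KD. Every KD library was above every CD library (4.2% of all genes had separate ranges). Its log2 fold change was 0.46 ± 0.13 (adjusted p = 0.979, and exact permutation p = 0.0571, the smallest this test can give). Its raw p was above 0.01 but under 0.05 without CD replicate 4 (0.44 ± 0.14), without KD replicate 3 (0.39 ± 0.14) and without both (0.37 ± 0.16). Without KD replicate 3 the 1 gene of the 26 at 0.01 was instead Lrrc10b (-0.91 ± 0.22, against -0.25 ± 0.37 with all libraries), singled out after its values were seen. Within the direct pathway list Tac1, the precursor of substance P (0.53 ± 0.33), and Pdyn, that of dynorphin (0.34 ± 0.41), had the largest estimates. In the indirect pathway list these were Gpr52 (0.73 ± 0.37), an orphan receptor that raises cyclic AMP, and Adora2a (0.61 ± 0.49), both highest in KD replicate 3 at 20.8 and 6.51 CPM. Without that library Gpr52 was at 0.13 ± 0.27 and Tac1 at 0.14 ± 0.31. Among genes shared by both kinds of neuron, the sodium channel subunit Scn4b had the lowest estimate (-0.51 ± 0.43), at 44.9 CPM in KD replicate 3 against 139 to 247 in the other libraries.

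Of 8 genes that make, carry or break down dopamine, 1 was under a raw p of 0.05 (3.19% of all genes were): Th, the rate-limiting enzyme of dopamine synthesis. Its log2 fold change was -2.07 ± 0.79 (adjusted p = 0.979, and exact permutation p = 0.0571, the smallest this test can give). Th measured 1.80, 1.37, 1.71 and 10.6 CPM in CD and 1.20, 0.588 and 0.943 CPM in KD. All KD libraries were below all CD libraries (ranges lay apart for 4.2% of all genes), by a wide gap only from CD replicate 4, the library with the high olfactory bulb markers. Without CD replicate 4 the log2 fold change was -0.86 ± 0.35, still under a raw p of 0.05, and it was above 0.05 without KD replicate 3 (-2.09) and without both (-0.88 ± 0.42). Of the 8 genes 5 had a higher estimate in KD and 3 a lower one (median 0.04), and without both libraries it was 4 and 3 of the 7 then tested (median 0.01). The dopamine transporter Slc6a3 was at 0.0428 to 1.72 CPM (-0.65 ± 1.02). Of the other dopamine receptors only Drd5, the second D1-type receptor, was tested (-0.21 ± 0.45), while Drd4 stayed at or below 0.183 CPM.

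The 28 genes of the DARPP-32 signalling list, its kinases, phosphatases and G proteins, gave 22 higher and 6 lower estimates in KD, with a median log2 fold change of 0.03 and none at a raw p of 0.01. The split was 16 and 12 without CD replicate 4, 18 and 10 without KD replicate 3, and 13 and 15 without both (median -0.01), against 49.0% of all genes higher with all libraries. One was under 0.05, Prkar2b, a regulatory subunit of protein kinase A, at 98.0, 101, 98.7 and 96.5 CPM in CD and 101, 114 and 127 CPM in KD (0.22 ± 0.09, adjusted p = 0.979; exact permutation p = 0.114). It was not under 0.05 without CD replicate 4 (0.19 ± 0.09) or without KD replicate 3 (0.15 ± 0.09). The largest estimates were those of Mapk3, a mitogen-activated kinase (0.38 ± 0.28), and Arpp19, a phosphatase 2A inhibitor (0.33 ± 0.37). Without both libraries Arpp19 was at 0.36 ± 0.10 and was the 1 gene of the list at a raw p of 0.01. Of 6 partners and relatives of Rgs9, none was under 0.05, and the largest estimates were those of Rgs9bp (0.41 ± 0.54) and Rgs7bp (-0.14 ± 0.14), membrane anchors of this family. The split of these 6 was 4 higher and 2 lower (median 0.09), and 3 and 3 without CD replicate 4 (median -0.04). It was 5 and 1 without KD replicate 3 (median 0.17), and 4 and 2 without both (median 0.06).

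Among 7 opioid peptide and receptor genes, counted without Penk, 5 had a higher estimate in KD and 2 a lower one, with a median log2 fold change of 0.34 and none under 0.05. The median was 0.06 both without CD replicate 4 (6 genes tested) and without KD replicate 3, and 0.00205 without both, with 3 higher and 3 lower. The kappa receptor Oprk1 measured 8.64, 4.98, 19.8 and 1.75 CPM in CD and 13.5, 37.6 and 16.2 CPM in KD (1.36 ± 0.70). The mu receptor Oprm1 measured 2.16 to 2.59 CPM in CD and 1.54, 3.82 and 7.59 CPM in KD (0.87 ± 0.44, and 0.21 ± 0.37 without KD replicate 3). Unlike Penk, Oprk1 was highest in KD replicate 2, while Oprm1 was highest in KD replicate 3.

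Of 10 retinoid receptor and enzyme genes beside Rxrg, 2 had a higher estimate in KD (Rarb and Crabp1) and 8 a lower one, with a median log2 fold change of -0.32. Without CD replicate 4 the split was 4 higher and 6 lower (median -0.11). It was 1 higher and 9 lower without KD replicate 3 (median -0.29) and also without both libraries (median -0.22). Rxra, the main retinoid X receptor, measured 45.5, 42.4, 34.1 and 53.4 CPM in CD and 34.4, 32.1 and 36.0 CPM in KD, with a raw p under 0.05 and overlapping ranges (-0.35 ± 0.14, adjusted p = 0.979; exact permutation p = 0.171). It was not under 0.05 without CD replicate 4 (-0.26 ± 0.12). The retinoic acid binding proteins gave the largest estimates, Crabp1 at 1.62 ± 0.92 and Crabp2 at -1.04 ± 0.81, with Crabp1 at 2.24 CPM in KD replicate 3 against 0.109 to 0.366 elsewhere (-0.61 ± 0.68 without that library) and Crabp2 at 9.48 CPM in CD replicate 4 against 0.764 to 2.96 elsewhere.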

How the data were processed

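Cortex RNA was sequenced by the authors from ribosome-depleted, stranded total RNA libraries with 50-base paired reads, aligned to mm10 with STAR and counted per gene with HTSeq counting within STAR. Versions, annotation and strand setting are not given in the sources used here. The deposited files hold raw counts per gene symbol, 1 file per mouse, and no replicate was pooled.

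CPM is counts per 1000000 counts of a library. Low-count genes were removed with filterByExpr (minimum count 10), libraries were scaled by TMM, and the diets were compared with the quasi-likelihood test of edgeR 4.0.16 (robust fit, no covariate) in R 4.3.3, with Benjamini-Hochberg adjustment over all 15881 genes tested. The threshold of a raw p of at most 0.01 is the study's own. Scripts were tested on simulated data. P-values weigh the difference between the diets against the spread between these libraries. Intervals are exact Poisson and cover counting error only.

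The members and gene lists were chosen with earlier results of these data known. All members are named. Of each pathway list, genes under a raw p of 0.05 and the 2 with the largest fold change are named, with the 10 genes most like the members' mean z-score. Cell type and region markers are given beside results. Gene coordinates are from GENCODE M21, in which 98.5% of the symbols matched. Alternatives were other scalings, filters and tests (limma 3.58.1, DESeq2 1.42.0), Xist as a covariate, fits without single libraries, and a replicate block. Counts of calls and fold changes of list genes without CD replicate 4 and KD replicate 3 were added after seeing the data. So were the exact two-sided permutation tests on log2(CPM + 0.1), which double the smaller tail.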

Additional observations from a re-analysis of the deposited data

Results flagged for a closer look

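Over 34 levels and ratios examined for a single CD library far from the other 3 (the gap to the nearest over the whole range, on the log2 scale), 6 passed Dixon's 95% critical value, where chance would give about 1.7. For 5 of them the library was CD replicate 4. Gpr6 was high in it, at a log2 CPM of 1.02 against -0.00365 to 0.0944 (gap over range 0.904). The members' sum was low, at 6.14 against 6.89 to 7.04 (0.835), as was the sum of genes shared by striatal spiny neurons, at 10.6 against 10.7 to 10.7 after rounding (0.838), and that of the DARPP-32 signalling list, at 13.2 against 13.4 to 13.4 (0.834). The log2 ratio of Penk to Drd2 was 3.45 in it against 5.11 to 5.21 (0.941). The remaining one was the oligodendrocyte sum of CD replicate 3, at 10.0 against 11.7 to 12.0 (0.881).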

How the results depend on the processing

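No setting run here brought a member to a raw p of 0.01. The members' median log2 fold change was positive under every scaling, filter and test, from 0.192 (limma-voom) to 0.281 (RLE). It ran from -0.0194 (without KD replicate 3) to 0.469 (without KD replicate 2) when single libraries were left out, and was -0.257 without CD replicate 4 and KD replicate 3. Over all genes, the count at a raw p of 0.01 was 51, and became 227 when the level of Xist entered as a covariate, 120 with DESeq2 and 103 with the likelihood-ratio test. It lay between 19 and 211 when single libraries were left out, the extremes being CD replicate 1 and CD replicate 3. With single libraries left out, the log2 fold change of Ppp1r1b ran from -0.0849 to 0.278, Penk from -0.0107 to 1.31, Rxrg from -0.522 to 1.53, Isl1 from -1.97 to 1.98 and Syndig1l from -0.742 to 0.09. Without both CD replicate 4 and KD replicate 3 it was -0.229 for Ppp1r1b, -0.0288 for Rgs9, -0.285 for Penk, -0.705 for Rxrg and -2.14 for Isl1. With limma-voom Isl1 was at -0.533. Drd1 and Drd2 stayed above 0 and Gpr6 below 0 in every fit, though Drd2 was at 0.0217 ± 0.466 without both libraries. The cause of these changes was not tested.

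Deviations of same-numbered CD and KD libraries correlated at 0.251, 0.195 and 0.098. Those of differently numbered libraries ran from -0.35 (CD replicate 1 and KD replicate 3) to 0.308 (CD replicate 4 and KD replicate 3). Whether the replicate numbers pair the libraries was not tested. A replicate block over the libraries numbered 1 to 3 gave 182 genes at a raw p of 0.01, -0.0941 for Ppp1r1b, 0.323 for Drd1 and a members' median of 0.155. The same libraries without the block gave 33 genes, -0.0849 for Ppp1r1b, 0.34 for Drd1 and a members' median of 0.203.

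Drd2, Gpr6 and Isl1 rest on 23 to 46, 10 to 74 and 0 to 27 counts a library, the shallowest of the members.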
